A study of Rattus norvegicus with 12 samples.

Results

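The genes described here are 37 genes of skeletal muscle and of its formation: the myogenic transcription factors, the actins, myosins and troponins of the sarcomere, its scaffold proteins, and proteins of calcium release, the nerve-muscle synapse, cell adhesion and cell fusion. They were chosen by symbol, and 31 of the 37 had a row in the 3 deposited tables, among 12899 genes listed in all 3. The other 6 (Myf5, Myf6, Pax7, Myh2, Myh4 and Myh8) were not analysed here.

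RNA sequencing was done on 12 libraries labelled as primary nucleus pulposus (NP) cells, the cells of the disc core between vertebrae, from Wistar rats. The cells grew out of explants in medium with serum, and each library came from cells transduced with a lentivirus. The shTon libraries carried an shRNA against TonEBP (gene Nfat5), the factor by which cells adapt to high salt, and the PLKO libraries carried the control vector. For the last 24 h before collection the TNF groups were given the inflammatory cytokine TNF-a at 50 ng/mL, and the CTR groups were untreated. The 4 groups, shTon_TNF, shTon_CTR, PLKO_TNF and PLKO_CTR, held 3 libraries each, and the titles number the 3 as sets 1, 2 and 3. What a set stands for (1 animal, 1 culture or 1 day) is not in the labels, so each p-value covers only the spread between these samples.

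Skeletal muscle forms when progenitors that express MyoD (Myod1) leave the cell cycle, switch on myogenin (Myog) together with MEF2 factors, and fuse into myotubes. These factors bind E-boxes and MEF2 sites beside genes of the contractile apparatus. The disc core derives from the notochord and trunk muscle from the somites beside it, and muscle fibres are not a tissue of the disc core.

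Depth on the listed genes ran from 7160042 to 18646798 reads per library. All values below are normalised reads, that is reads divided by 1 size factor per library over the 12 libraries, so genes are compared with themselves across libraries and not with each other. Of 12 markers of NP and notochord, 5 had a row (Krt8, Cd24, Pax1, Foxf1 and Lgals3), and their summed level was 1738 to 3926 normalised reads in set 1, 2814 to 4986 in set 2 and 3408 to 7305 in set 3. Brachyury, Krt18, Krt19, Foxa2, Shh, Noto and Ca12 were not analysed here. Cd24, a surface marker of notochordal cells, had 2.54 to 55.2 normalised reads. Nfat5 stood at 1695, 499.7 and 232 normalised reads in the shTon_TNF libraries of sets 1 to 3, 458, 457 and 288 in shTon_CTR, 642, 1092 and 483 in PLKO_TNF and 685, 1363 and 1818 in PLKO_CTR. The library labelled shTon_TNF of set 1 thus went against its label, with more Nfat5 than the PLKO_TNF library of its set, and the other 5 shTon libraries lay below their PLKO partners.

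Promoters of 3 members are shown because these genes carry the results: Acta1, the skeletal muscle actin, Myog, the regulator with 0 reads in set 3, and Cdh15 (M-cadherin), which fell with TNF-a. Each is a window of 300 bases around the start of the gene, most of it before the start, 5′ to 3′ on the gene's strand, from RefSeq on build GRCr8. Acta1 is at chr19:68784145-68784444 on the minus strand, Myog at chr13:48297226-48297525 on the plus strand and Cdh15 at chr19:67814407-67814706 on the plus strand. Capitals mark E-boxes (CANNTG, which reads the same on both strands).
Acta1: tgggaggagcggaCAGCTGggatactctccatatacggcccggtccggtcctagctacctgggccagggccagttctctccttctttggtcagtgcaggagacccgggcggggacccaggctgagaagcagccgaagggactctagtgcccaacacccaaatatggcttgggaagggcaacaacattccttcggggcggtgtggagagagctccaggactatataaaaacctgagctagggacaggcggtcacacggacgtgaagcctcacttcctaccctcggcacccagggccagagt
Myog: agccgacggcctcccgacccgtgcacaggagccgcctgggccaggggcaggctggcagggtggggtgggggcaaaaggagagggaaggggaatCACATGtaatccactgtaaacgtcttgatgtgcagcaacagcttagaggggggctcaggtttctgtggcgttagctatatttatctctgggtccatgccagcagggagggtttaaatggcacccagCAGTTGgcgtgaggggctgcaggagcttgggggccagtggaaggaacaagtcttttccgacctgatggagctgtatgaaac
Cdh15: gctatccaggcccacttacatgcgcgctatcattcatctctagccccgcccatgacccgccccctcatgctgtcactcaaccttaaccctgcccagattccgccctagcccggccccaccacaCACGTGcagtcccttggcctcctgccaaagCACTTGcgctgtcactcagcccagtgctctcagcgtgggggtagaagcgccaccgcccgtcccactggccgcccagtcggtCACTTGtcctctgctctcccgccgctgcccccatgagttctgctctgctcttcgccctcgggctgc
The Acta1 window held 1 E-box, the Myog window 2 and the Cdh15 window 3. The table held 26 of the 31 members. Myod1, Mef2c, Tnnt3, Tnnc1 and Tmem8c were without an entry.

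Over the 26 promoters, 23 held a CANNTG (88.5%), against 72.1% of all 33469 promoters of that length. CAGCTG, one of its forms, was in 9 of the 26 (34.6%), against 15.1% of all promoters. The form CACCTG, read on both strands and so also as CAGGTG, was in 8 (30.8%), against 18.8% of all promoters. A MEF2 box, searched on both strands, was in 3 (11.5%: Myh1, Ttn and Casq2), against 3.29% of all. The pattern was YTAWWWWTAR, with Y for C or T, W for A or T and R for A or G. The Myog window holds ctatatttat, which misses this pattern only at its last base and was not counted. A CArG box, the site of serum response factor, was in 2 (7.69%: Acta1 and Actc1), against 1.64% of all, and TATAAA, read on the gene's strand, was in 4 (15.4%), against 8.80% of all. These are matches of letters and not measured binding.

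These genes differed above all by set. Their share of the reads on listed genes was 0.563% to 1.36% in the 4 libraries of set 1. It was 0.203% to 0.376% in set 2 and 0.00465% to 0.00579% in set 3. The 95% Wilson intervals reached at most 0.00669 percentage points to either side in set 1, 0.00378 in set 2 and 0.000517 in set 3, and cover counting error only. In reads, this was 104971 to 156363 per library in set 1, 24560 to 40310 in set 2 and 333 to 620 in set 3. All values by set are a description with no test, since the genes were chosen with that pattern known.

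For 27 of the 31 members every library of sets 1 and 2 lay above every library of set 3, against 6.36% of 12310 genes. None lay below it in that way, against 4.61% of genes. Set 1 lay above set 2 in every library for 27 members as well, against 10.5% of genes. The median fold over all 31 members was 3.35, with a range of 2.01 (Mef2c) to 50.2 (Myh7). Myh7 had at most 6 reads in any set 2 library. Folds between sets are reads summed over the 4 libraries of a set, divided by the sum of their size factors. The 27 and the 27 are not the same genes: Mef2c was outside both counts, Des, Myh7 and Chrna1 only outside that against set 3, and Myog, Myl4 and Ttn only outside that against set 2. In set 3, 7 members had 0 reads in all 4 libraries (Myog, Myh1, Tnni2, Tnnc2, Ttn, Chrng and Tmem8c), and 17 had at most 10 reads over the 4. In bulk RNA, fewer muscle cells and less muscle RNA per cell cannot be told apart.

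**Figure D1:**
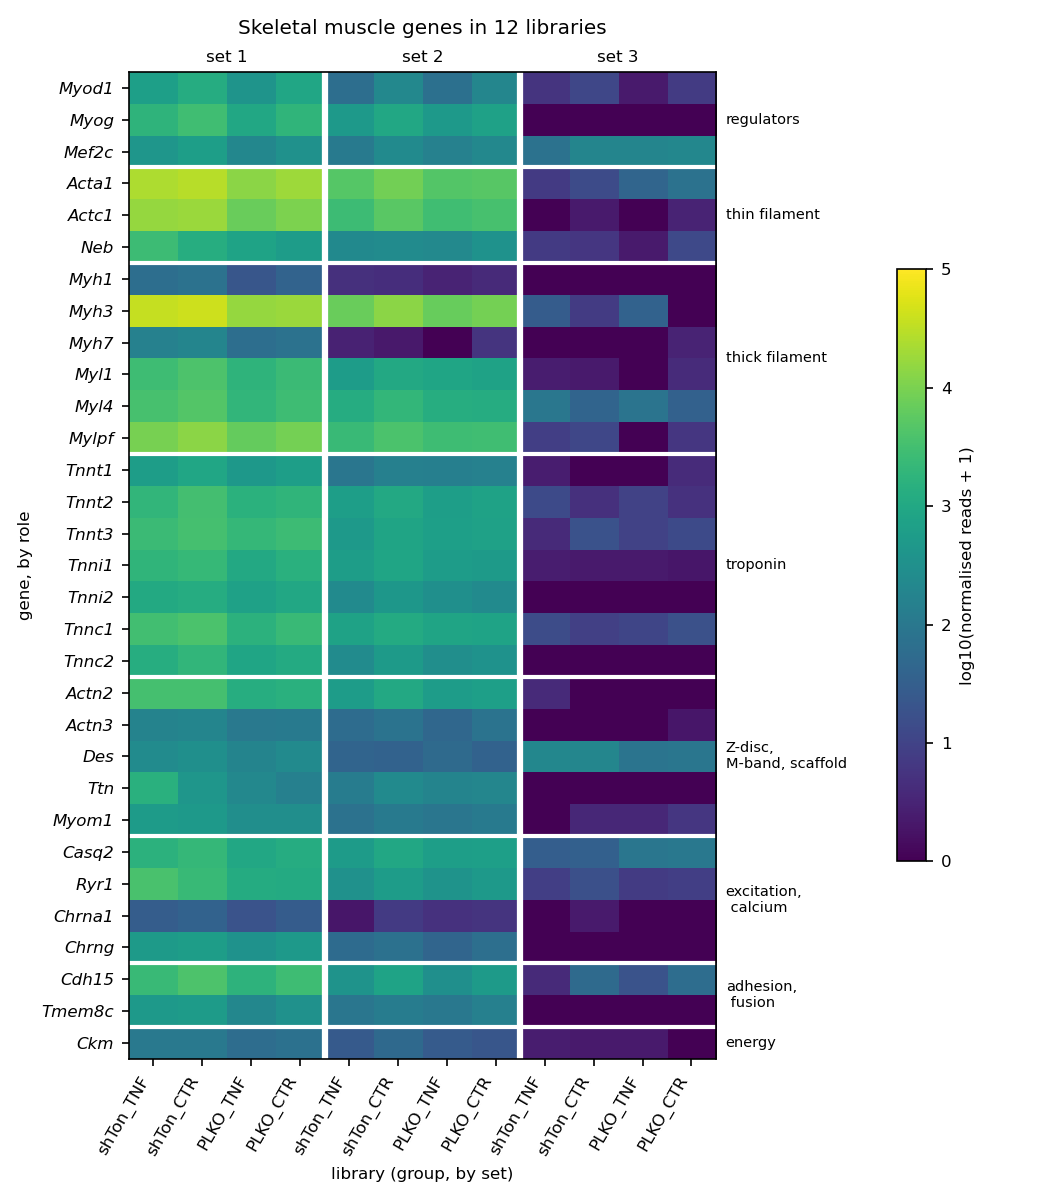
Level of each of the 31 members (vertical, grouped by role) in each of the 12 libraries (horizontal, by set and group), as colour on a log scale of normalised reads. The 4 columns of set 3 are at or near 0 for most members, while Mef2c, Des, Casq2 and Myl4 keep higher levels there.

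Among the regulators, Myog, the factor of terminal differentiation, was read in sets 1 and 2 alone. It had 1796, 486 and 0 normalised reads in the shTon_TNF libraries of sets 1 to 3, 2864, 1000.3 and 0 in shTon_CTR, 979.9, 514 and 0 in PLKO_TNF and 1827, 733 and 0 in PLKO_CTR. Its level in set 1 was at least 1875-fold higher than in set 3, with a floor of 3 reads over the 4 set 3 libraries. Myod1, the determination factor, had set means of 798 ± 356 (set 1), 135 ± 79.1 (set 2) and 5.62 ± 3.81 (set 3) normalised reads, with SD over n = 4 libraries from the 4 groups. Mef2c, a MEF2 factor that muscle shares with heart, vessels, cartilage and neurons, averaged 396 ± 173, 183 ± 59.0 and 163 ± 58.5 normalised reads in sets 1, 2 and 3 (SD, n = 4 each). Sets 2 and 3 overlapped for Mef2c, and its 4 set 3 libraries held 535 reads.

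The contractile genes followed the same order of sets. Acta1 averaged 21370.0 ± 6634, 5746 ± 1918 and 34.0 ± 31.4 normalised reads in sets 1, 2 and 3, and Myh3, embryonic myosin heavy chain, 27613 ± 12759, 9098 ± 3085 and 17.6 ± 17.3 (SD, n = 4 each). Actc1, the cardiac actin that embryonic skeletal muscle also makes, had 7359.8 to 18053 normalised reads in set 1, 2726.5 to 5325 in set 2, and 3 reads in the 4 set 3 libraries together. Mylpf, the regulatory light chain of fast fibres, had 6452 to 13358 normalised reads in set 1, 2439 to 3783 in set 2 and at most 10.4 in set 3. The adult myosins Myh1 (fast) and Myh7 (slow) had 20.4 to 76.3 and 63.0 to 187 normalised reads in set 1, and at most 3.93 and 4.53 in set 2. No rule for reads that match several actins or several myosins was found in the labels, so single values of these near-identical genes are uncertain.

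All 7 troponin genes were present, of the slow set (Tnnt1, Tnni1, Tnnc1), the fast set (Tnnt3, Tnni2, Tnnc2) and Tnnt2, the form of heart and embryonic muscle. Tnnc1 had 1642 to 3760.4 normalised reads in set 1, 759.9 to 1159.8 in set 2 and 7.81 to 16.6 in set 3. Tnnt3 had 2166 to 3418 in set 1, 508 to 846 in set 2 and 3.03 to 16.9 in set 3. In all 7 the 3 sets were apart in every library, with set 1 over set 2 by 2.48-fold (Tnni1) to 4.60-fold (Tnnt1) on the summed reads.

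Scaffold, calcium and synapse genes gave the same order, apart from Des, from Ttn, whose set 1 and set 2 libraries overlapped, and from the few reads of Chrna1, another acetylcholine receptor subunit of muscle, which had 17.9 to 36.7 normalised reads in set 1, 0.982 to 5.997 in set 2 and at most 1.30 in set 3. Actn2, alpha-actinin of the Z-disc, had 1275 to 3409 normalised reads in set 1, 573 to 1019 in set 2 and 2 reads in set 3 in all. Casq2, a calcium-binding protein of the sarcoplasmic reticulum, kept 30.3 to 101 normalised reads in set 3, against 542 to 1011 in set 2 and 1016 to 2135 in set 1. Chrng, the gamma subunit of the fetal acetylcholine receptor, had 356 to 596 normalised reads in set 1, 42.7 to 70.8 in set 2 and 0 in set 3. Tmem8c (myomaker, which drives fusion of myoblasts) had 201 to 566 in set 1, 89.3 to 147 in set 2 and 0 in set 3. Ckm, the creatine kinase of muscle, had 59.3 to 105 normalised reads in set 1, 21.2 to 50.4 in set 2 and at most 1.51 in set 3. Des (desmin, an intermediate filament that smooth muscle and other cells also make) was at 201, 198, 81.1 and 91.5 normalised reads in the set 3 libraries of shTon_TNF, shTon_CTR, PLKO_TNF and PLKO_CTR, against 39.3, 37.2, 53.4 and 36.3 in set 2.

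Markers of other cells were measured beside these genes. The 7 of 8 smooth muscle markers with a row summed to 24286 to 36210 normalised reads in set 1, 9153 to 21321 in set 2 and 3127 to 7528 in set 3, but only 2 of the 7 lay above set 3 in every library of sets 1 and 2. Of 11 heart markers 3 had a row (Nppb, Gata4 and Hcn4), with sums of 55.6 to 166 in the 12 libraries. Myh6, Myl2, Myl7, Tnni3, Nppa, Ryr2, Nkx2-5 and Tbx5 were not analysed here. Fibroblast, annulus and tendon markers (7 of 8 with a row) summed to 29513 to 81996 in set 1, 38606 to 119227 in set 2 and 25488 to 39083 in set 3. Their part in the muscle pattern was not tested.

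The comparison of PLKO_TNF with PLKO_CTR asks what TNF-a does in cells with the control vector. Myod1 and Cdh15 fell, no member rose, and 26 of the 31 members were lower by value, with a median log2 fold change of -0.39 against -0.01 over all genes. The test was limma on log2(normalised reads + 1) with the set as a block, Benjamini-Hochberg adjustment over 12373 genes and a threshold of 0.05. It called 9.62% of genes, 4.97% higher and 4.65% lower. The share of members called lower, 2 of 31, is near that background. Of the 31 members, 8 had an unadjusted p under 0.05, all 8 lower, against 3584 of the 12373 genes. That share of members was not above the share of all genes. On the recovered reads edgeR and DESeq2 each called 3 members, among 1205 and 1348 genes. Without the set in the model, or without the mean-variance trend, limma called no member.

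Myod1 had 389.6, 69.4 and 1.27 normalised reads in the PLKO_TNF libraries of sets 1 to 3, against 924, 195 and 6.24 in PLKO_CTR. It was lower with TNF-a in each of the 3 sets, and the ranges of the groups overlap. Its log2 fold change was -1.49 ± 0.20 (SE, n = 3 each), with an adjusted p of 0.0112 in limma. Cdh15, the cadherin by which myoblasts hold to each other, had 1715, 308 and 17.8 normalised reads in PLKO_TNF, against 2743, 529 and 60.3 in PLKO_CTR, also lower in 3 of 3 sets. Its log2 fold change was -1.06 ± 0.21 (SE, n = 3 each), with an adjusted p of 0.0295 in limma. With all 12 libraries in 1 fit the adjusted p of Cdh15 in limma was 0.309, and without the set in the model neither gene passed, nor did any of the 12373.

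Myog had 979.9, 514 and 0 normalised reads in PLKO_TNF, against 1827, 733 and 0 in PLKO_CTR. It was lower in both sets that express it, and limma over the 3 sets gave a log2 fold change of -0.47 ± 0.22 (SE, adjusted p = 0.206). Without set 3 the value was -0.71 with an adjusted p of 0.0105 in limma. On the recovered reads of all 3 sets edgeR gave -0.71 (adjusted p = 0.0392) and DESeq2 -0.70 (adjusted p = 0.0214). The authors' deposited table lists log2 fold changes of -1.12 for Myod1 (adjusted p = 3.14e-05), -0.77 for Cdh15 (adjusted p = 0.00149) and -0.60 for Myog (adjusted p = 0.0227), and no other member under 0.05. Mef2c, at 206, 156 and 185 in PLKO_TNF against 339, 218 and 202 in PLKO_CTR, had a log2 fold change of -0.44 and did not pass (adjusted p = 0.118 in limma).

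**Figure D2:**
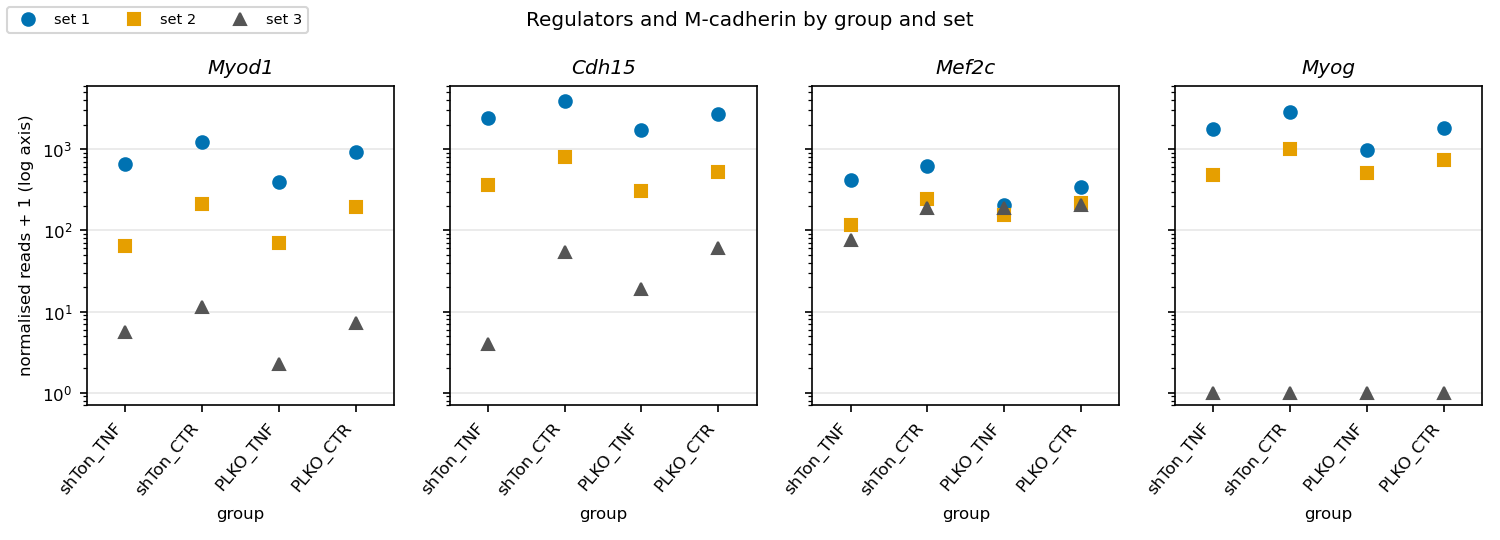
Normalised reads plus 1 (vertical, log axis) of Myod1, Cdh15, Mef2c and Myog by group (horizontal), 1 point per library, with colour and shape for the set. Within each set the TNF points of Myod1 and Cdh15 lie below the CTR points of the same vector, and Myog is at 0 reads in all 4 set 3 libraries.

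None of the contractile genes passed. All 3 thin filament genes were lower by value. Their log2 fold changes were -0.46 for Acta1 (adjusted p = 0.0817 in limma), -0.85 for Actc1 and -0.91 for Neb. The last 2 lean on few set 3 reads: Actc1 had 0 in PLKO_TNF and 2 in PLKO_CTR, and Neb 1 and 11. In sets 1 and 2 the log2 ratios were -0.49 and -0.28 for Actc1, and 0.45 and -0.66 for Neb. Acta1 had 13703, 4557 and 41.8 normalised reads in PLKO_TNF, against 18389, 5029 and 74.9 in PLKO_CTR, lower in 3 of 3 sets. Of 6 thick filament genes 4 were lower by value and of 7 troponins 6, with medians of -0.63 and -0.23. In set 3, Mylpf had 0 reads in PLKO_TNF and 5 in PLKO_CTR, Myl1 0 and 3, and Myh7 0 and 2. There Myh3 had 29 and 0, Myl4 64 and 33, and Myh1 0 in both. The 5 scaffold genes had a median of -0.14 and the 4 of calcium and synapse -0.21. In set 1, 27 of 31 members were lower with TNF-a, with a median log2 ratio of -0.48, and in set 2, 21 of the 28 that reached a mean of 10 normalised reads, with a median of -0.23. In set 3, 7 of 9 were lower, with a median of -0.17. Among all genes 50.4% to 50.8% were lower in each set, with medians within 0.01 of 0.

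Among members averaging 10 normalised reads or more in the pair, Myod1 had the lowest log2 ratio in set 1 (-1.24) and in set 2 (-1.48). The widest departures the other way were in set 3, where Myh3 had 36.8 normalised reads in PLKO_TNF against 0 in PLKO_CTR. In sets 1 and 2 its log2 ratios were -0.12 and -0.36. Its fitted change of 1.65 did not pass (adjusted p = 0.327 in limma) and rests on set 3.

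In shTon cells TNF-a gave 2 calls, both regulators. Myod1 and Mef2c fell, no member rose, and 23 of 31 were lower by value, with a median of -0.28 against -0.01 over all genes. limma, fitted on the jointly scaled reads with the set as a block, called 3.28% of 12339 genes, 1.95% higher and 1.33% lower. Of the 31 members, 9 had an unadjusted p under 0.05, all 9 lower, against 2321 of the 12339 genes. edgeR called 1 member among 403 genes and DESeq2 3 among 627. Without the set in the model, or without the mean-variance trend, limma called 0 members here too.

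Myod1 had 657, 63.8 and 4.54 normalised reads in shTon_TNF, against 1221, 211 and 10.4 in shTon_CTR, lower in 3 of 3 sets. Its log2 fold change was -1.21 ± 0.22 (SE, n = 3 each), with an adjusted p of 0.037 in limma. Without set 2 the adjusted p was 0.152. Mef2c had 419, 115 and 75.7 in shTon_TNF, against 619.8, 245 and 189 in shTon_CTR, also lower in 3 of 3 sets. Its log2 fold change was -0.98 ± 0.19 (SE, n = 3 each), with an adjusted p of 0.0398 in limma. For Mef2c the adjusted p was 0.0852 without set 2, 0.0839 without set 3, 0.0506 in edgeR and 0.175 with all 12 libraries in 1 fit.

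Cdh15 stood at 2404, 366 and 3.03 normalised reads in shTon_TNF, against 3969, 799 and 53.4 in shTon_CTR. It was lower in 3 of 3 sets, with a log2 fold change of -1.87 ± 0.52 (SE) that did not pass (adjusted p = 0.114 in limma), and the set 3 ratio of -3.75 was far from those of sets 1 and 2 (-0.72 and -1.12). Without any 1 set its adjusted p in limma was below the threshold: 7.57e-06 without set 1, 0.000380 without set 2 and 0.0321 without set 3. These fits hold few libraries, so the p-values rest mostly on the spread that limma borrows from other genes. The 2 smallest come from fits that keep set 3, where Cdh15 had 2 reads in shTon_TNF and 41 in shTon_CTR. Myog, with 1796, 486 and 0 in shTon_TNF against 2864, 1000.3 and 0 in shTon_CTR, had a log2 fold change of -0.57 (adjusted p = 0.251 in limma). Without set 3 it was -0.86 with an adjusted p of 0.0380, and DESeq2 on all 3 sets gave -0.85 with 0.0143. As with the control vector, and among members averaging 10 normalised reads or more, Myod1 had the lowest log2 ratio in set 1 (-0.89) and set 2 (-1.71).

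The median log2 ratio of the members was -0.26 in set 1, -0.83 in set 2 and -0.06 in set 3, against -0.04, -0.01 and 0.0023 over all genes. In set 2, 27 of 28 members were lower with TNF-a and in set 1, 27 of 31. Set 1 includes the library whose Nfat5 goes against its label. Without set 1, 7 of 28 members were called, all lower (Actc1, Myod1, Acta1, Tnnt3, Ryr1, Cdh15 and Mef2c), and 1105 of 12205 genes.

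**Figure D3:**
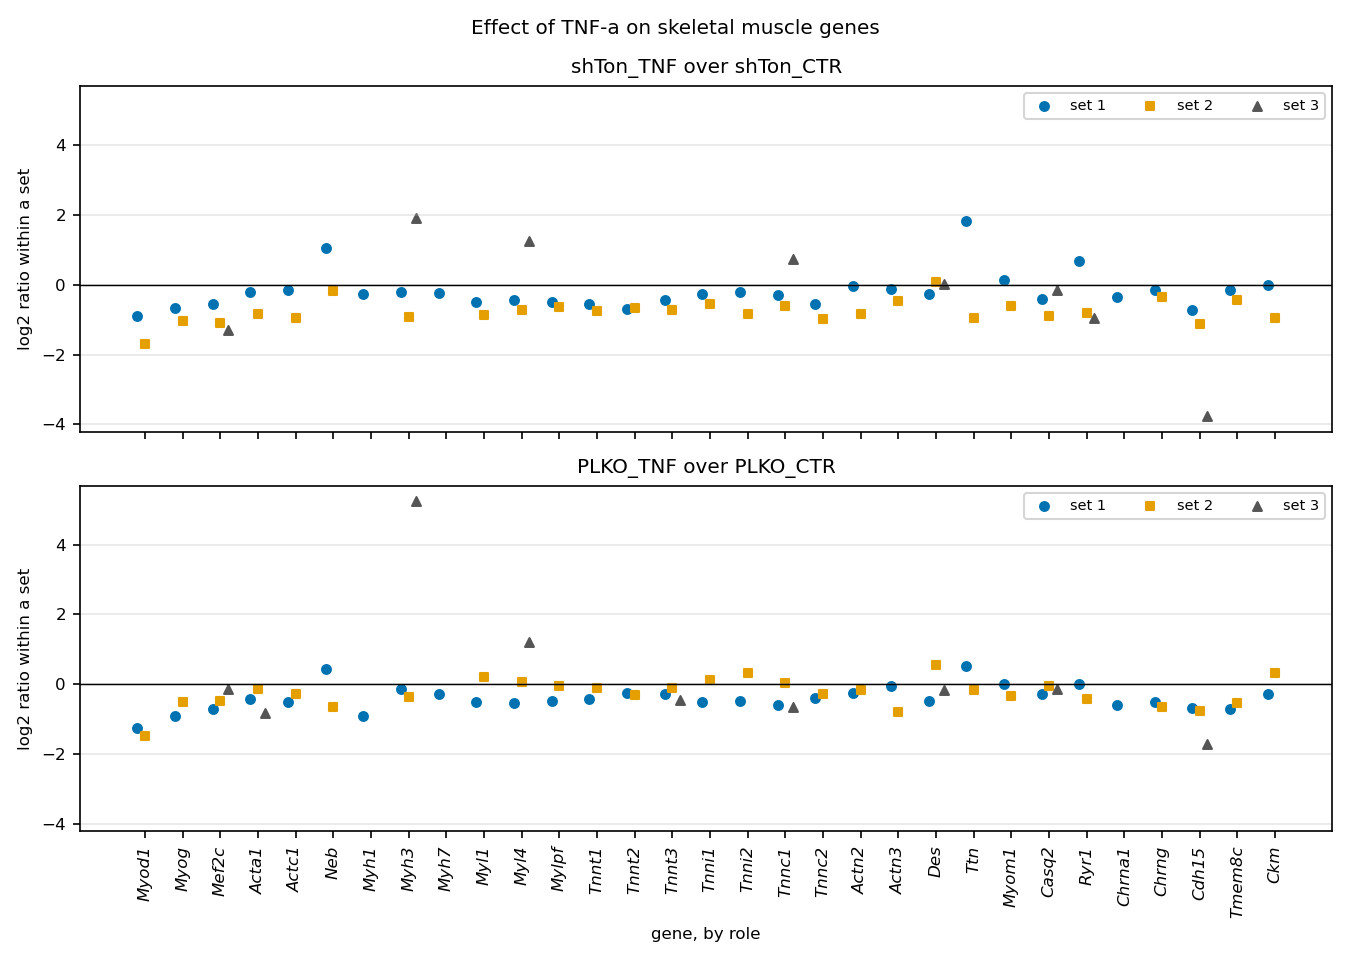
Log2 ratio of TNF over CTR (vertical) for each member (horizontal) within each set, in shTon and in PLKO cells, for members averaging 10 normalised reads or more in that pair of libraries. Most points lie below 0 in sets 1 and 2, with Myod1 at the low end in both vectors.

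Whether the effect of TNF-a differed between the vectors was tested as an interaction over the 12 libraries. limma called 0 of 31 members and 0.0% of 12310 genes, and no member had an unadjusted p under 0.05, against 219 of all genes. edgeR and DESeq2 also called 0. The interaction of Myod1 was 0.25 ± 0.38 (SE) and of Cdh15 -0.81 ± 0.80 (SE) on the log2 scale. With the library labelled shTon_TNF of set 1 left out, limma again called 0 of 30 members. In limma 3 of those 30 then had an unadjusted p under 0.05, against 245 of 12288 genes. The self-test of the interaction fit on simulated reads recovered few changes of log2 1, so a difference of that size could be missed. The simulated sets differed by less than the sets do for most members, so larger differences could be missed as well.

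The comparisons of shTon with PLKO ask what loss of TonEBP does, and limma called no member in either. In untreated cells 24 of 31 members were higher by value in shTon, with a median log2 fold change of 0.36 against 0.01 over all genes. limma with the set as a block called 0 members and 0.113% of 12383 genes, 0.0162% higher and 0.0969% lower. An unadjusted p under 0.05 was found for 8 of the 31 members, all higher: Actn2, Myl4, Tnni1, Ryr1, Mylpf, Ckm, Myh3 and Tnnt3. Of the 12383 genes 2108 were under that p. Set 3 held few reads of most of these 8 members. Its shTon_CTR and PLKO_CTR libraries had 5 and 0 for Myh3, 1 and 0 for Ckm, 8 and 5 for Mylpf and 12 and 7 for Ryr1. They had 0 and 0 for Actn2, 1 and 1 for Tnni1, 13 and 12 for Tnnt3 and 31 and 33 for Myl4. edgeR called 0 members and 18 genes, and DESeq2 2 members (Actn2 and Myl4) among 411 genes.

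Actn2 had 3409, 1019 and 0 normalised reads in shTon_CTR, against 1522, 662 and 0 in PLKO_CTR. It was higher in both sets that express it, with a log2 fold change of 0.59 ± 0.24 (SE) and an adjusted p of 0.282 in limma. Myl4, a light chain of atria and embryonic muscle, had 4636, 2083 and 40.3 in shTon_CTR, against 2761, 1231 and 34.3 in PLKO_CTR, higher in 3 of 3 sets. Its log2 fold change was 0.57 ± 0.15 (SE) with an adjusted p of 0.133 in limma. The authors' deposited table lists 0.73 (adjusted p = 0.00922) for Actn2 and 0.58 (adjusted p = 0.0226) for Myl4, and no other member under 0.05 for knockdown without or with TNF-a. Without set 3, limma called 6 members higher (Actn2, Myl4, Tnni1, Tnnc2, Myh3 and Casq2) and 220 of 12350 genes.

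The regulators were higher by value too, at 0.39 for Myod1, 0.36 for Myog and 0.31 for Mef2c, and none passed. Within set 1 all 31 members were higher in shTon_CTR than in PLKO_CTR, with a median log2 ratio of 0.74, and in set 2, 24 of 28, with a median of 0.44. In set 3, 4 of 9 were higher, with a median of -0.10. Among all genes 49.9% to 52.5% were higher in each set.

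**Figure D4:**
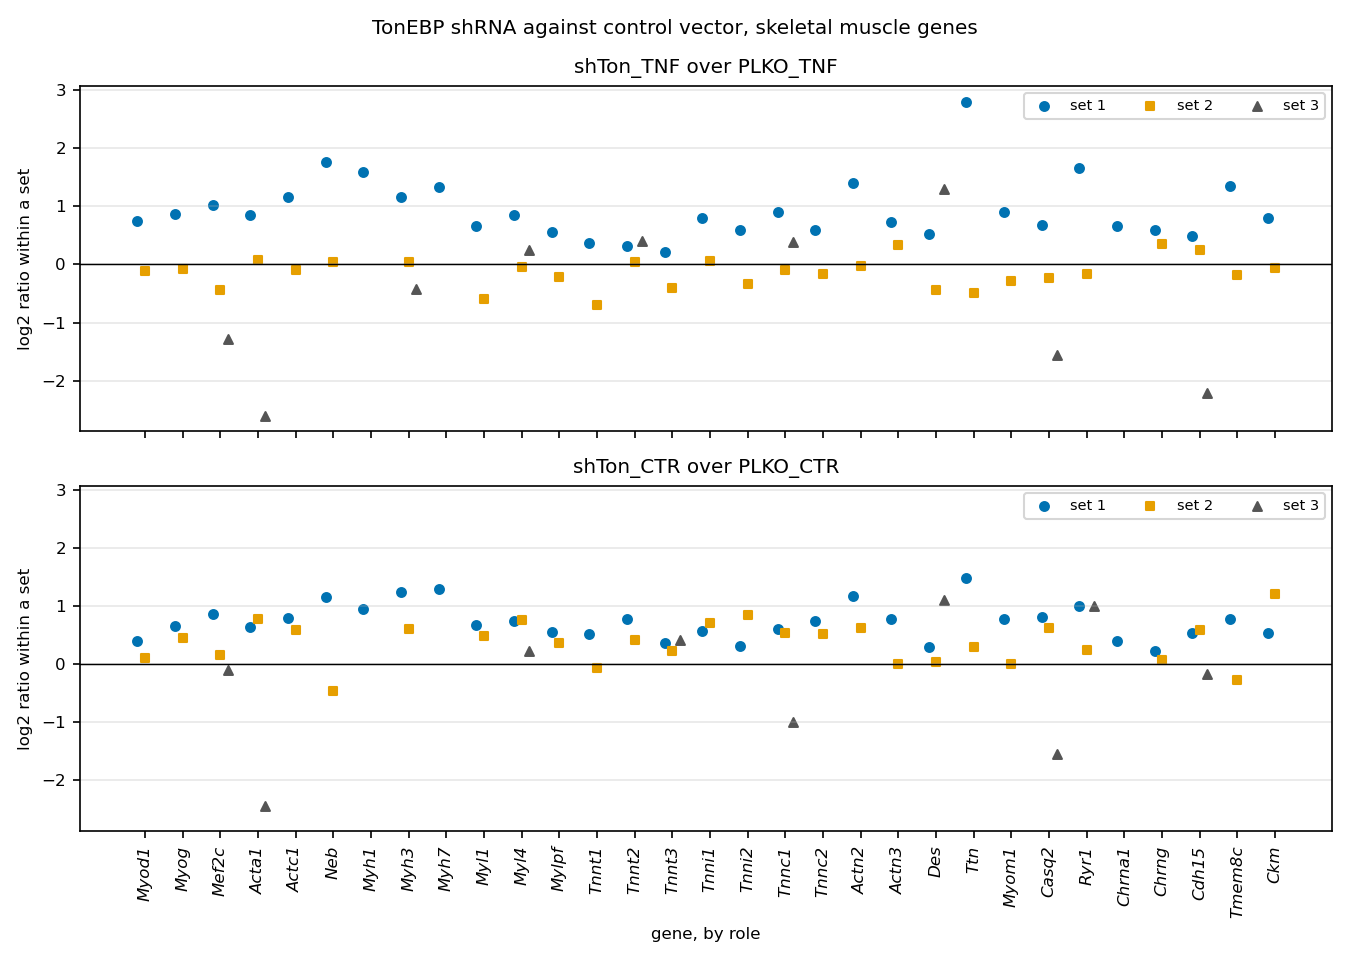
Log2 ratio of shTon over PLKO (vertical) for each member (horizontal) within each set, under TNF-a and without it, for members averaging 10 normalised reads or more in that pair. All 31 set 1 points lie above 0 in both conditions, while set 2 points lie mostly above 0 without TNF-a and on both sides of it with TNF-a.

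Under TNF-a, 24 of 30 tested members were higher by value in shTon, with a median of 0.35 against 0.02 over all genes. Chrna1, the alpha subunit of the muscle acetylcholine receptor, was below the filter. limma with the set as a block called 0 members and 0.254% of 12213 genes, 0.115% higher and 0.139% lower. Of the 30 tested members only Neb and Actn2 had an unadjusted p under 0.05, both higher, against 2079 of the 12213 genes. That share of members was below the share of all genes. edgeR and DESeq2 called 0 members, among 29 and 363 genes. Of the 6 fibroblast, annulus and tendon markers tested there, Col3a1 was higher in shTon_TNF than in PLKO_TNF (log2 fold change 1.53), and its part in the members' values was not tested. The median log2 ratio was 0.80 in set 1 with 31 of 31 members higher, -0.11 in set 2 with 8 of 28 higher, and -0.42 in set 3 with 4 of 9 higher. The set 1 value rests on the library labelled shTon_TNF that held more Nfat5 than its PLKO_TNF partner. Without set 1 the median was 0.04, with 15 of 28 members higher. Without set 2 limma called 3, all higher (Neb, Actn2 and Mylpf), and 157 of 12217 genes. That fit rests on set 1 and on few set 3 reads. In set 3 Neb had 4 reads in shTon_TNF and 1 in PLKO_TNF, Actn2 2 and 0, and Mylpf 5 and 0. The log2 ratio of Mylpf was 0.56 in set 1 and 3.10 in set 3.

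In that same library 3 genes of giant proteins had the highest ratios of all members. Ttn, the giant spring of the sarcomere, had 1483, 126 and 0 normalised reads in shTon_TNF, 416, 245 and 0 in shTon_CTR, 212, 177 and 0 in PLKO_TNF and 149, 199 and 0 in PLKO_CTR. Neb (nebulin, the ruler of the thin filament) had 2731, 231 and 6.06 normalised reads in shTon_TNF, 1315, 259 and 5.21 in shTon_CTR, 802, 225 and 1.27 in PLKO_TNF and 588, 355 and 11.4 in PLKO_CTR. Ryr1, the calcium release channel, had 3669, 332 and 7.57 in shTon_TNF, 2309, 588 and 15.6 in shTon_CTR, 1164, 371 and 6.34 in PLKO_TNF and 1153, 494 and 7.28 in PLKO_CTR. In set 1 each was highest in shTon_TNF, and in set 2 none was. Their log2 ratios of shTon_TNF over PLKO_TNF in set 1 were 2.80, 1.77 and 1.66, the 3 highest of the 31, against 0.85 for Acta1. In set 2 they were -0.49, 0.03 and -0.16. Under TNF-a in shTon cells of set 1 they were 3 of only 4 members with a higher level than in shTon_CTR, at 1.83, 1.05 and 0.67. In PLKO cells of set 1 they were again 3 of only 4 members higher with TNF-a, at 0.51, 0.45 and 0.01. Ttn also had the highest set 1 ratio of shTon_CTR over PLKO_CTR (1.48). Ttn, Neb and Ryr1 were chosen after their values were seen. The part of the shTon_TNF library of set 1 in the result was not tested.

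**Figure D5:**
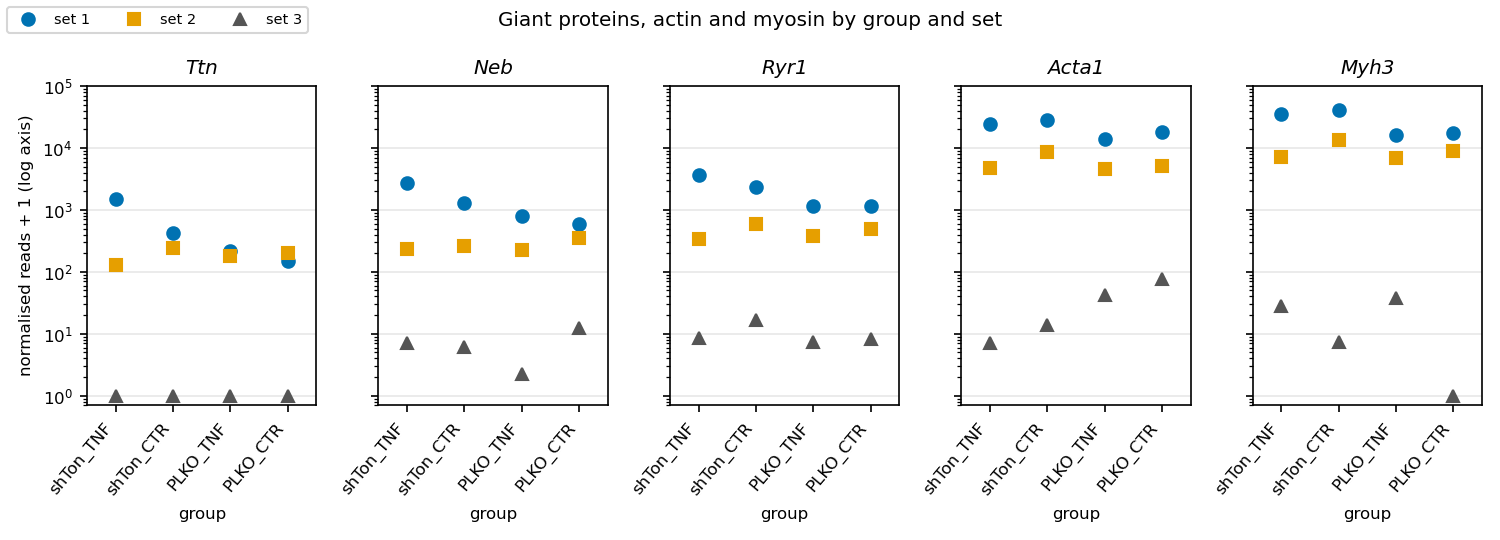
Normalised reads plus 1 (vertical, log axis) of Ttn, Neb, Ryr1, Acta1 and Myh3 by group (horizontal), 1 point per library, with colour and shape for the set. The set 1 points of Ttn, Neb and Ryr1 are highest in shTon_TNF, whereas those of Acta1 and Myh3 are highest in shTon_CTR.

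Other genes of the muscle programme were counted from 6 lists. With TNF-a in PLKO cells, limma called 1 of 11 tested progenitor and upstream genes higher (Vcam1) and 1 lower (Rapsn), 1 of 12 fusion genes and cofactors lower (Cdon), 4 of 27 other sarcomere and membrane genes lower (Ankrd1, Flnc, Dag1 and Klhl40), 2 of 10 genes of muscle metabolism lower (Pfkm and Eno3) and 1 of 11 inhibitors of myogenesis lower (Id1). None of 17 other genes of excitation and calcium was called. These shares stand against 4.97% of all genes called higher and 4.65% called lower.

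Cdon, a co-receptor that promotes myogenesis, had 1239, 379.9 and 416 normalised reads in PLKO_TNF, against 1682, 701 and 977 in PLKO_CTR, lower in 3 of 3 sets, and its log2 fold change was -0.85 (adjusted p = 0.0233 in limma). Ankrd1, a stress-responsive ankyrin repeat protein of muscle, had 11555, 2136 and 579 in PLKO_TNF, against 19812, 3906 and 878 in PLKO_CTR, lower in 3 of 3 sets, at -0.75 (adjusted p = 0.0116 in limma). Vcam1, an adhesion molecule of leukocyte capture that myoblasts also carry, had 10313, 3258 and 5287 in PLKO_TNF, against 5217, 1905 and 1478 in PLKO_CTR, higher in 3 of 3 sets, at 1.20 (adjusted p = 0.0192 in limma). These 3 kept their calls when any 1 set was left out, and lost them with all 12 libraries in 1 fit.

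The other 7 called genes had log2 fold changes of -0.78 (Rapsn, which clusters acetylcholine receptors), -0.76 (Flnc, muscle filamin), -0.55 (Dag1, dystroglycan), -1.16 (Klhl40, which stabilises thin filament proteins), -0.68 (Pfkm, muscle phosphofructokinase), -0.77 (Eno3, muscle enolase) and -0.76 (Id1, which blocks E-box factors). Each lost its call when some 1 set was left out. The adjusted p in limma was then 0.1001 for Rapsn, 0.0619 for Flnc, 0.175 for Dag1, 0.0585 for Pfkm and 0.0932 for Id1 without set 2, and 0.114 for Klhl40 and 0.0587 for Eno3 without set 1. Without set 3 it was 0.0535 for Flnc and 0.104 for Dag1. In shTon cells TNF-a gave calls for Vcam1 (1.01, adjusted p = 0.00872 in limma), Ankrd1 (-1.15, adjusted p = 0.00872), Lmod3 (-1.14, adjusted p = 0.041) and Eno3 (-0.63, adjusted p = 0.049). The adjusted p of Lmod3 was 0.148 without set 1 and 0.253 without set 2, and that of Eno3 was 0.290 without set 2 and 0.0811 without set 3. The shTon calls were 1 of 11 tested progenitor and upstream genes, 2 of 29 other sarcomere and membrane genes and 1 of 10 of muscle metabolism. They stand against 1.95% of all genes called higher and 1.33% called lower in shTon cells. No gene of the 6 lists was called for knockdown or for the interaction.

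Markers of other cells moved with TNF-a beside the members. Of all genes limma called 4.65% lower in PLKO cells and 1.33% lower in shTon cells. In limma the smooth muscle markers Mylk (-1.58 on the log2 scale), Lmod1 (-1.83), Smtn (-0.88) and Cnn1 (-0.73) fell in PLKO cells, 4 of the 7 measured, with all 7 lower by value. In shTon cells Mylk (-2.09), Lmod1 (-1.98) and Cnn1 (-1.13) fell. Of the 5 NP and notochord markers, Krt8 (-1.10), Pax1 (-1.45) and Lgals3 (-0.97) fell in PLKO cells, and Krt8 (-0.83) and Lgals3 (-0.76) in shTon cells. Col3a1 (-1.70) and Scx (-0.76) of the 6 fibroblast, annulus and tendon markers tested, the cartilage gene Hapln1 (-1.63), the Schwann cell marker S100b (-0.66) and the heart marker Hcn4 (-1.88) also fell in PLKO cells, and Hapln1 and S100b (-0.72) in shTon cells. The summed smooth muscle markers ranged from 7408 to 24286 normalised reads in PLKO_TNF, against 7528 to 28006 in PLKO_CTR, and from 3127 to 28166 in shTon_TNF, against 3306 to 36210 in shTon_CTR. The part of these markers in the fall of Myod1, Cdh15 and Mef2c was not tested.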

How the data were processed

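The members and lists were chosen with earlier results of these data known. The authors deposited 3 tables of 2 groups each, holding a normalised signal per gene and library, log2 fold changes and adjusted p-values, per the file headers. The submitters' processing notes name Novoalign 2.08.01, DESeq2 (no version) and build rn5, with no role or order. No read counter and no rule for multi-mapped reads was given in the sources used here. The steps of the deposited signal gave whole reads for 100% of values within 0.001 read, and those reads were joined over the 3 tables and scaled with DESeq2 size factors.

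limma 3.58.1 (R 4.3.3) was run on log2(value + 1) of genes with a mean of at least 10, with a mean-variance trend, the set as a block and Benjamini-Hochberg adjustment at 0.05. The 3 deposited pairs used the deposited values, and shTon_TNF over shTon_CTR and the interaction the joined reads. Fold changes on this scale understate those of low genes. To check the pairing, each library's deviation from its group mean was correlated with that of each library of another group: r was 0.61 to 0.89 for the 18 same-set pairs and -0.74 to 0.18 for the other 36, so set numbers pair the libraries. edgeR 4.0.16 and DESeq2 1.42.0 on the recovered reads, with the block, were alternatives. Fits with 1 set left out hold few libraries, so their p-values rest mostly on the spread that limma borrows from other genes. On simulated reads with 100 genes changed at each size, limma recovered 42 to 53 at log2 1 and 93 to 99 at log2 2 in the pairs. In the interaction it recovered 12 and 91. The simulated sets differed by less than the sets do for most members. Members past the threshold and the regulators are given with all their values. The 2 highest of each role are given by value, mean or range, and other pathway genes where they passed. Other genes were named after their values were seen. A set has 4 libraries, and libraries held 7160042 to 18646798 reads on the listed genes.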

Additional observations from a re-analysis of the deposited data

How the results depend on the processing

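The order of sets did not depend on scaling or filter: 27 of 31 members had sets 1 and 2 above set 3, and 27 had set 1 above set 2, also with TMM scaling and with no filter. Tests of treatments rest on the pairing: with no replicate block, 0 members passed with TNF-a in PLKO cells and 0 in shTon cells, against 2 and 2 with it. Both counts were also 0 with no mean-variance trend and 1 with all 12 libraries in 1 fit, and edgeR gave 1 in shTon cells. For knockdown in untreated cells DESeq2 called 2 members against 0. When each replicate was left out in turn, the count ranged from 2 to 3 for TNF-a in PLKO cells, from 2 to 7 for TNF-a in shTon cells (7 without set 1, 2 without set 2 and 4 without set 3), from 0 to 6 for knockdown in untreated cells (6 without set 3) and from 0 to 3 for knockdown under TNF-a (3 without set 2). The interaction gave 0 under every alternative run, including 1 chosen after seeing the data that left out the library labelled shTon_TNF of set 1. No called member changed direction. Uncalled splits moved: without set 2 the interaction had 21 members higher and 10 lower (median 0.14), against 14 and 17 (median -0.10), and edgeR had 31 of 31 members higher for knockdown in untreated cells, against 24. The pseudocount of 0.1 and no filter moved none of the counts of called members. With that pseudocount 23 members were higher by value for knockdown in untreated cells, against 24. The causes were not tested. Few reads limit set 3, where 18 members had 0 reads in at least 1 library and only 9 reached a mean of 10 normalised reads, so ratios within set 3 say little.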

Other observations

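Muscle genes outside the 31 members shared the order of sets to different degrees. All libraries of sets 1 and 2 lay above all of set 3 for 22 of 30 other sarcomere and membrane genes, 12 of 18 other genes of excitation and calcium and 7 of 10 genes of muscle metabolism. The same held for 5 of 12 progenitor and upstream genes, 5 of 12 fusion genes and cofactors and 1 of 11 inhibitors of myogenesis. No filter on low values was applied to these lists, and without that filter 6.60% of 12899 genes showed this order.

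Krt8, a keratin of notochordal cells, was highest in set 3, and was named after its values were seen. It stood at 93.9, 110.0 and 1364 normalised reads in the shTon_TNF libraries of sets 1 to 3, 194, 192 and 2163 in shTon_CTR, 64.2, 68.3 and 1329 in PLKO_TNF and 209, 122 and 2278 in PLKO_CTR. Every set 3 library lay above every library of sets 1 and 2, as in 4.61% of all genes. Krt8 was only 1 of 5 NP and notochord markers with a row, and the sums over the 5 overlapped between sets. Those sums were 1738 to 3926 normalised reads in set 1, 2814 to 4986 in set 2 and 3408 to 7305 in set 3.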
